A study of Homo sapiens with 4 samples.

Results

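The sirtuins and the poly(ADP-ribose) polymerases (PARPs) are enzymes that use nicotinamide adenine dinucleotide (NAD) as a substrate and break it down as they act. Expression of 10 of their genes, 6 sirtuins (SIRT1, SIRT2, SIRT3, SIRT5, SIRT6 and SIRT7) and 4 PARPs (PARP1, PARP2, PARP4 and TNKS), was followed in 2 breast cancer cell lines. The genes were chosen by name, by matching Ensembl identifiers to gene symbols, and all 10 were found among the 50653 genes listed. All 10 had a mean of at least 1 FPKM over the libraries, the level that 14321 genes reached and that was required for testing. FPKM scales the fragments of a gene to transcript length and to library size, so that levels can be set side by side between genes as well as between libraries.

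The series holds 4 RNA-seq libraries, 1 for each combination of cell line and short hairpin RNA (shRNA). Both BT-20 and MDA-MB-468 are long-established human breast cancer lines of the triple-negative type. The culture medium was Eagle's minimum essential medium for BT-20 and Leibovitz's L-15 for MDA-MB-468, so that line and medium cannot be told apart. Cells of each line had received, by pLKO.1-puro lentivirus and puromycin selection, either a control shRNA or an shRNA against QPRT, the enzyme that turns quinolinate into a precursor of NAD in the route from tryptophan. All 4 populations therefore carried a lentiviral hairpin and had been selected, none was untransduced, and neither separate cultures nor the hairpin used are given in the sample labels.

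Sirtuins remove acyl groups from lysines of histones, transcription factors and metabolic enzymes, and spend 1 NAD for each group removed. PARPs transfer the ADP-ribose of NAD to proteins or nucleic acids, singly or in chains. PARP1 and PARP2 do so at DNA breaks, and their inhibitors are used against breast cancers with defects of homologous recombination.

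The libraries held between 10321996 and 10945948 fragments. QPRT, the targeted gene, stood at 249 FPKM in the BT-20 control and at 40.5 in its knockdown, against 117 and 18.3 FPKM for the MDA-MB-468 pair. Its mean fold difference on the log2(FPKM + 1) scale was 6.07, lower with QPRT shRNA (limma adjusted p = 1.42e-32). The summed level of 7 breast epithelial genes was between 8189 and 12451 FPKM in the 4 libraries, PGR was listed at 0 in all of them, ESR1 lay between 1.05 and 5.76 FPKM and ERBB2 between 50.7 and 129. Genes of gut and gastric epithelium summed to 56.9 and 122 FPKM in the BT-20 and MDA-MB-468 control libraries and to 18.7 and 19.9 in the QPRT shRNA libraries. All 11 genes of that list were lower with QPRT shRNA in both lines, and 1 of them, TFF1, was listed at 0 in a library. Genes of plasma cells summed to 32.2 and 76.0 FPKM in the controls and to 15.2 and 15.1 with QPRT shRNA, with 3 of 4 lower in both lines and none at 0. Genes of fibroblasts summed to between 15.1 and 32.4 FPKM, nearly all of it COL1A1, and those of leukocytes to between 0.0569 and 0.340. In RNA from a whole culture, fewer cells of a type and less RNA per cell cannot be told apart. Where the gut, gastric and plasma cell transcripts in these breast lines came from was not tested, and such cells need not have been present.

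All 10 genes are protein-coding, and each has several annotated transcripts, from 3 for PARP4 to 21 for SIRT7. In GENCODE 29 (GRCh38), PARP1 (ENSG00000143799) lies at chr1:226360691-226408079, PARP2 (ENSG00000129484) at chr14:20343582-20357905 and PARP4 (ENSG00000102699) at chr13:24420926-24512810. SIRT1 (ENSG00000096717) lies at chr10:67884669-67918390, SIRT3 (ENSG00000142082) at chr11:215458-236931, SIRT5 (ENSG00000124523) at chr6:13574529-13615158 and SIRT7 (ENSG00000187531) at chr17:81911939-81921323. SIRT2 (ENSG00000068903) and SIRT6 (ENSG00000077463) share chromosome 19, at chr19:38878555-38899862 and chr19:4174109-4182604.

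Promoter sequences are shown for 3 genes that differed in behaviour. PARP2 was the gene with the largest rise from BT-20 to MDA-MB-468, SIRT1 rose with a smaller difference, and PARP1, the gene of the 10 with the most fragments in every library, did not pass the test. The sequences come from RefSeq (GRCh38.p14), in which 7 of the 10 genes had a window before a start site. The stretch for PARP2 is chr14:20343408-20343581 on the plus strand, the 174 bases between its start and the start of RPPH1, the RNA component of ribonuclease P, which is transcribed the other way. A long non-coding gene, AL355075.4, is annotated across this stretch on the minus strand. The stretches for SIRT1 (chr10:67884406-67884655, plus strand) and PARP1 (chr1:226408094-226408343, minus strand) are the 250 bases before their RefSeq starts. Capitals mark the motifs found, the octamer in PARP2, GC boxes and E-boxes in SIRT1 and GC boxes in PARP1.
PARP2: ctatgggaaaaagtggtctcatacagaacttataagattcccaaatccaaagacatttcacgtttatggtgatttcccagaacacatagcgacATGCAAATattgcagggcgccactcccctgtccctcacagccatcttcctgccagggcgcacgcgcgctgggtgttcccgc
SIRT1: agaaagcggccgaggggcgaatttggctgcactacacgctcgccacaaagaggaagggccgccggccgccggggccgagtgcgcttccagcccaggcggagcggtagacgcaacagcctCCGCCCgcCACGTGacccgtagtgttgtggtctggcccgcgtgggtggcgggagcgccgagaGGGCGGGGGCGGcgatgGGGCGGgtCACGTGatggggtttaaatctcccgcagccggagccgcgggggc
PARP1: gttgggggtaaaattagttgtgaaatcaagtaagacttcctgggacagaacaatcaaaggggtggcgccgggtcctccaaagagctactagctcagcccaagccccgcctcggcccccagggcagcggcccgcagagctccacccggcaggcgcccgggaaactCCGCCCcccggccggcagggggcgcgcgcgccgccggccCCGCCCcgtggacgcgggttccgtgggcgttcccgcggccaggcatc

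Both strands of each stretch were searched for 6 motifs. The GC box, bound by factors of the Sp family, was taken as GGGCGG. The E-box, bound by Myc and other helix-loop-helix factors, was taken as CACGTG. The octamer, bound by POU-domain factors, was taken as ATTTGCAT. The core of sites for the ETS family of factors was taken as CCGGAAG. The TATA box of the core promoter was taken as TATAAA, and the sixth motif was the CCAAT box. None of these overlapped another in the stretches shown. The SIRT1 stretch held 4 GC boxes and 2 E-boxes. At least 1 GC box was found in 42.6% of 35116 RefSeq promoters, and at least 1 E-box in 6.34% of them. The SIRT1 GC boxes at bases 182 and 188 lay end to end, and the GC box at base 199 stood just before the E-box at base 207. The PARP1 stretch held 2 GC boxes and none of the other motifs. The PARP2 stretch held the octamer, on the minus strand from base 94, and no GC box. The octamer was present at the same positions of 1.11% of promoters. The RefSeq window of PARP2, which extends past the printed stretch at both ends, did hold 1 GC box. Over the 9 windows of the 7 genes, GC content ran from 54.4% to 78% and the observed over expected number of CpG pairs from 0.77 to 1.02, against medians of 58% and 0.558 for all promoters. A match describes these letters, and the RNA data hold no measurement of what binds there. RPPH1, the other gene at the PARP2 stretch, was listed at 0 FPKM in all 4 libraries.

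The first question was how much of each enzyme's mRNA the cells held. PARP1, the main sensor of DNA breaks in the family, had the highest FPKM of the 10 genes in both lines, with 142 and 171 in BT-20 (control and QPRT shRNA, the order used throughout) and 191 and 173 in MDA-MB-468. SIRT2, a mainly cytoplasmic deacetylase that acts on tubulin, followed in BT-20 with 76.0 and 92.6 FPKM. Its range did not overlap that of PARP1 above it or of PARP4 below it. In BT-20 the order went on with PARP4 (means over the 2 libraries, 59.7 FPKM), SIRT7 (46.8), SIRT3 (32.3), SIRT6 (27.7), PARP2 (24.7), SIRT5 (10.8), TNKS (10.003) and SIRT1 (9.50). PARP4 and SIRT7, SIRT3 and SIRT6, SIRT6 and PARP2, and TNKS and SIRT1 were neighbours whose libraries overlapped.

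In MDA-MB-468, PARP2 came after PARP1 with a mean of 76.2 FPKM, then SIRT7 with 68.9 and SIRT2 with 52.7. The other 6 genes, SIRT6, SIRT3, SIRT5, SIRT1, TNKS and PARP4, lay between 24.0 and 17.1 FPKM, and each overlapped the next. PARP4 was the third gene of the order in BT-20 and the last in MDA-MB-468, while PARP2 was the seventh in BT-20 and the second in MDA-MB-468, where its libraries overlapped those of SIRT7.

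**Figure D1:**
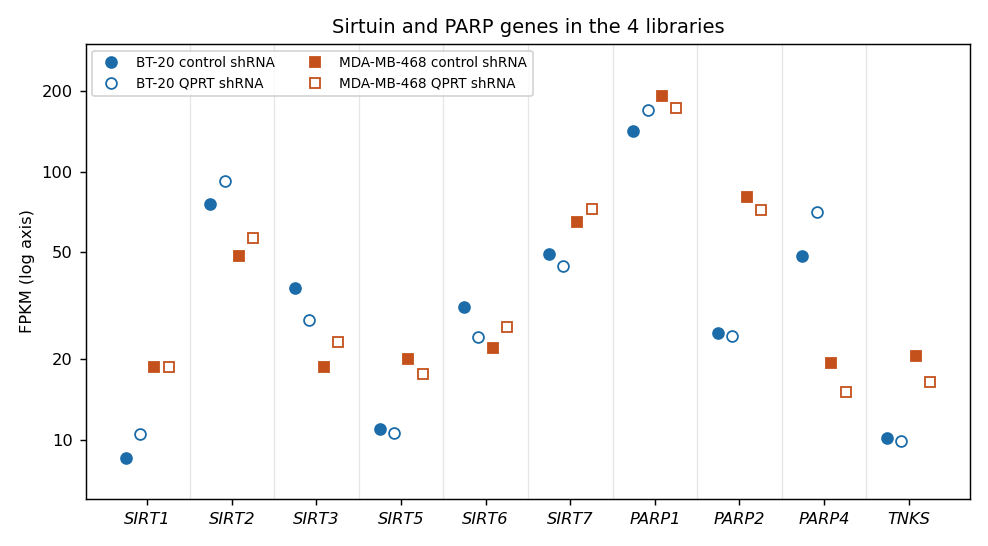
FPKM of the 10 genes (horizontal axis) on a logarithmic vertical axis, with 1 point per library: circles for BT-20, squares for MDA-MB-468, filled for control shRNA and open for QPRT shRNA. PARP1 lies highest, between 142 and 191 FPKM, the 2 lines are farthest apart for PARP2 and PARP4, and the lines overlap for SIRT6.

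These levels depend on the transcript length by which fragments are divided, which matched the mean over all annotated transcripts of a gene. With the length of the principal transcript instead, a choice added after seeing the data, SIRT2 came before PARP1 in BT-20 (means 51.6 and 45.8 FPKM, overlapping) and PARP1 stayed ahead in MDA-MB-468 (53.3). On that length PARP4 took rank 4 in BT-20 and rank 9 in MDA-MB-468, and PARP2 took rank 7 and rank 3, after SIRT7 in MDA-MB-468. TNKS, tankyrase 1, which modifies telomere and Wnt pathway proteins and has a long principal transcript of 9620 bases, then stood last in both lines with 1.86 and 3.43 FPKM. Ratios between libraries of the same gene are the same on either length.

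Counted per 1000000 fragments of the library and not divided by length, the 6 sirtuins together took 282 and 283 in BT-20 against 285 and 307 in MDA-MB-468. The 4 PARPs took 315 and 397 in BT-20 against 380 and 335 in MDA-MB-468. The sum of the sirtuins thus differed little between the libraries although most single sirtuins differed between the lines.

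Most of the genes differed between the cell lines. In a limma fit across all tested genes with the shRNA as a block, 8 of 10 passed an adjusted p of 0.05, against 55.1% of all genes tested. PARP2, SIRT1, TNKS, SIRT5 and SIRT7 were higher in MDA-MB-468 (5 of 10, against 30.7% of all genes), and PARP4, SIRT2 and SIRT3 were lower (3 of 10, against 24.4%). SIRT6 and PARP1 did not pass. For each gene the fit leaves 1 residual degree of freedom. The SE and p-values therefore follow the trend of all tested genes at a similar level, not the spread of the single gene. The 2 libraries of a line, which carry different hairpins, stand in for replicates of that line. For 9 of 10 genes both libraries of a line lay above both of the other, as they did for 77.6% of all genes. The median line difference was 0.39 for the 10 genes and 0.10 for all tested genes on the log2(FPKM + 1) scale.

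Of the nuclear PARPs, PARP2, which works beside PARP1 at DNA breaks, had 25.0 and 24.4 FPKM in BT-20 against 80.4 and 71.9 in MDA-MB-468. The 4 libraries held 263, 264, 871 and 735 fragments of it. Both MDA-MB-468 libraries were far above both BT-20 libraries, and the hairpins of a line lay close together. PARP2 rose by 1.58 on the log2(FPKM + 1) scale from BT-20 to MDA-MB-468 (SE 0.21, limma adjusted p = 1.19e-12), or 2.99-fold. It was higher by over 2-fold with either hairpin, with a log2 ratio of fragment shares of 1.68 (exact 95% counting interval 1.48 to 1.89) with control shRNA and 1.56 (1.35 to 1.77) with QPRT shRNA. Such an interval comes from the fragment numbers of 2 libraries and covers counting error only.

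PARP1 itself had 1747 and 2157 fragments in BT-20 against 2424 and 2070 in MDA-MB-468. The lines were closest with QPRT shRNA, at 171 and 173 FPKM. Its mean line difference of 0.22 (SE 0.19) did not pass the test (limma adjusted p = 0.332). With control shRNA the log2 ratio of fragment shares was 0.43 (0.34 to 0.52), and with QPRT shRNA it was 0.02 (-0.07 to 0.11). PARP1 was thus 1.35-fold higher in the MDA-MB-468 library in the control pair alone.

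PARP4, the catalytic subunit of the vault particle, showed the widest range of the 10 genes, 2.16 on the log2(FPKM + 1) scale. It had 48.5 and 70.9 FPKM in BT-20 against 19.3 and 15.0 in MDA-MB-468, from 1144, 1718, 468 and 345 fragments. Both BT-20 libraries were above both MDA-MB-468 libraries. PARP4 fell by 1.73 on the log2(FPKM + 1) scale from BT-20 to MDA-MB-468 (SE 0.22, limma adjusted p = 4.98e-14). The log2 ratio of fragment shares was -1.33 (-1.49 to -1.18) with control shRNA and -2.24 (-2.41 to -2.07) with QPRT shRNA, so the intervals did not overlap. PARP2 and PARP4 were the 2 genes of the 10 with a line difference of at least 2-fold in 1 direction with both hairpins, as 23.3% of all tested genes had.

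TNKS had 10.2 and 9.84 FPKM in BT-20 against 20.5 and 16.4 in MDA-MB-468. All values of MDA-MB-468 were higher, and TNKS rose by 0.81 (SE 0.24, limma adjusted p = 0.00212). Its log2 ratio of fragment shares was 1.01 (0.76 to 1.27) with control shRNA and 0.74 (0.47 to 1.01) with QPRT shRNA.

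Among the sirtuins of the nucleus, SIRT1, a deacetylase of histones and of p53, had 8.53 and 10.5 FPKM in BT-20 against 18.6 and 18.6 in MDA-MB-468. SIRT1 rose by 0.91 between the lines (SE 0.24, limma adjusted p = 0.000573), with 235 and 296 fragments in BT-20 against 528 and 499 in MDA-MB-468. SIRT7, the nucleolar sirtuin, had 49.1 and 44.4 FPKM in BT-20 against 65.1 and 72.7 in MDA-MB-468. It rose by 0.55 (SE 0.21, limma adjusted p = 0.0175). SIRT6, a chromatin-bound deacetylase that acts in DNA repair and glucose metabolism, had 31.2 and 24.1 FPKM in BT-20 against 21.9 and 26.2 in MDA-MB-468. The lines overlapped for SIRT6 alone of the 10 genes, and its difference of -0.19 (SE 0.23) did not pass (limma adjusted p = 0.492).

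SIRT2 had 76.0 and 92.6 FPKM in BT-20 against 48.6 and 56.8 in MDA-MB-468, and fell by 0.66 (SE 0.21, limma adjusted p = 0.00306). Of the mitochondrial sirtuins, SIRT3, the main deacetylase of that compartment, had 36.8 and 27.9 FPKM in BT-20 against 18.6 and 23.1 in MDA-MB-468. SIRT3 fell by 0.60 (SE 0.23, limma adjusted p = 0.0155), but the gap was wide with control shRNA (log2 ratio of fragment shares -0.98, -1.22 to -0.75) and narrow with QPRT shRNA (-0.27, -0.50 to -0.04). SIRT5, which removes succinyl and malonyl groups, moved the other way, with 10.95 and 10.6 FPKM in BT-20 against 20.01 and 17.5 in MDA-MB-468. It rose by 0.75 (SE 0.24, limma adjusted p = 0.00485). SIRT3 and SIRT5 thus differed between the lines in opposite directions.

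**Figure D2:**
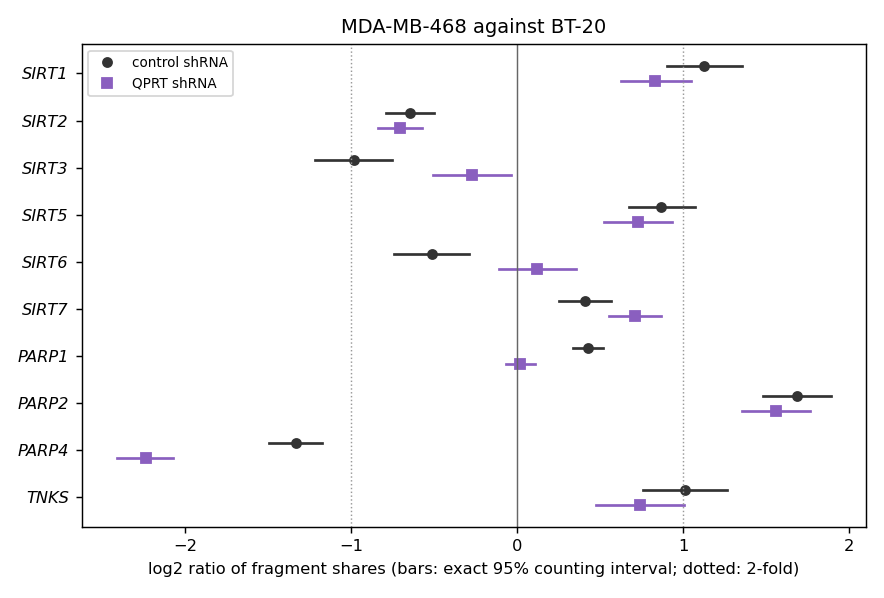
Log2 ratio of fragment shares, MDA-MB-468 over BT-20, for the 10 genes (rows), with circles for control shRNA and squares for QPRT shRNA, exact 95% counting intervals as bars and dotted lines at 2-fold. PARP2 lies right of the 2-fold line and PARP4 left of it with both hairpins, while SIRT6 and PARP1 have an interval that includes 0 with QPRT shRNA.

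When all 28429 genes with any fragment were kept in place of those with a mean of at least 1 FPKM, 4 of the 10 genes passed, PARP2, PARP4, SIRT1 and SIRT2. SIRT3, SIRT5, SIRT7 and TNKS then had limma adjusted p of 0.141, 0.0549, 0.0847 and 0.0504, with the same differences. Some exonic bases are shared with neighbours, 16.1% for SIRT5 with the antisense AL441883.1, 6.08% for SIRT3 with PSMD13, 4.28% for TNKS, 3.17% for PARP2, 1.71% for SIRT7 with MAFG and 0.643% for SIRT2 with NFKBIB, and the sources used here do not state whether strand was counted. The pseudogenes PARP1P1, PARP1P2, PARP4P1, PARP4P2 and PARP4P3 were listed at 0 in all libraries.

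The second question was whether the NAD-using genes differed when QPRT, a source of NAD, was knocked down. None of the 10 genes reached 2-fold or 1.5-fold in either line, where 1.7% (2-fold) and 8.98% (1.5-fold) of all tested genes did in BT-20. The shares of all genes were 1.89% and 9.17% in MDA-MB-468. Over both lines, with the line as a block, limma called 0 of 10 at an adjusted p of 0.05, against 0.628% of all genes, and 0 had an unadjusted p under 0.05, against 4.8%. Limma-voom on the fragments also called 0. The adjusted p was 1.00 for each of the 10. The largest mean differences were 0.25 for SIRT2 (SE 0.21) and -0.17 for TNKS (SE 0.24), and the median over the 10 genes was -0.02 against 0.03 for all tested genes. These values do not show that the levels were equal. The SE, between 0.19 and 0.24, followed the trend of all tested genes at a similar level, not the spread of the single gene. PARP4, with an SE of 0.22, differed by 0.54 in BT-20 but by -0.34 in the other line. SIRT2, with an SE of 0.21, differed by 0.28 and 0.22.

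Within a line there was 1 library per hairpin and no test, so differences were set against counting error. The interval left out 0 for 6 of 10 genes in BT-20, where it did for 43.8% of all genes, and for 9 of 10 in MDA-MB-468, where it did for 44.4%. An interval leaves out 0 more readily with more fragments. The 10 genes held 192 to 2424 fragments in a library, and the shares of all genes here and below are not matched for that number. In BT-20 the value with QPRT shRNA was higher for PARP4, SIRT1, SIRT2 and PARP1 (4 of 10, against 27% of all genes) and lower for SIRT3 and SIRT6 (2 of 10, against 16.8%). In MDA-MB-468 it was higher for SIRT3, SIRT6, SIRT2 and SIRT7 (4 of 10, against 23.1%) and lower for PARP4, TNKS, SIRT5, PARP2 and PARP1 (5 of 10, against 21.3%). SIRT2 was the gene of the 10 with the same sign and both intervals away from 0, with log2 ratios of 0.28 (0.17 to 0.41) in BT-20 and 0.22 (0.07 to 0.38) in MDA-MB-468. Among all genes 8.41% had this pattern.

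For 4 of 10 genes the signs were opposite in the 2 lines with both intervals away from 0, against 14.7% of all genes. That share was not matched for fragment number. PARP4 was 1.46-fold the control in BT-20 (log2 ratio 0.55, 0.44 to 0.66) and 0.782-fold in MDA-MB-468 (-0.36, -0.56 to -0.15). PARP1 was 1.20-fold in BT-20 (0.27, 0.17 to 0.36) and 0.906-fold in MDA-MB-468 (-0.14, -0.23 to -0.06). The pattern of these PARPs was the reverse of that of a pair of sirtuins.

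SIRT3 was 0.758-fold the control in BT-20 (-0.40, -0.61 to -0.19) and 1.24-fold in MDA-MB-468 (0.31, 0.06 to 0.57). SIRT6 was 0.771-fold in BT-20 (-0.38, -0.60 to -0.15) and 1.20-fold in MDA-MB-468 (0.26, 0.02 to 0.50). SIRT1 was 1.23-fold in BT-20 (0.29, 0.04 to 0.55), while in MDA-MB-468 its 528 and 499 fragments gave a ratio of 1.00 (0.0032, -0.18 to 0.18). TNKS was 0.801-fold in MDA-MB-468 (-0.32, -0.54 to -0.10), and in BT-20 its 193 and 192 fragments gave -0.05 (-0.34 to 0.25). SIRT5, SIRT7 and PARP2 were within 0.19 of 0 in both lines.

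**Figure D3:**
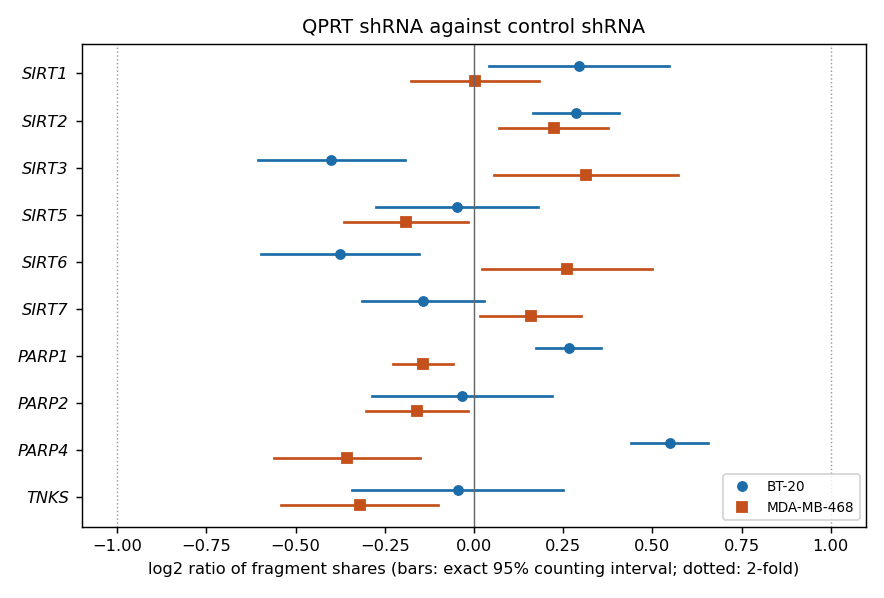
Log2 ratio of fragment shares, QPRT shRNA over control shRNA, for the 10 genes (rows), with circles for BT-20 and squares for MDA-MB-468, exact 95% counting intervals as bars and dotted lines at 2-fold. No gene reaches 2-fold, PARP4 lies at 0.55 in BT-20, -0.36 in MDA-MB-468, and SIRT2 lies right of 0 in both lines.

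The shRNA differences were also set against a smooth trend of all tested genes on the GC content and the length of transcripts. Among the 10 genes GC content ran from 42.0% for SIRT1 to 65.2% for SIRT6. SIRT2, SIRT3 and SIRT7 were at 57.7% or more, and PARP2, PARP4, TNKS and SIRT5 between 43.9% and 46.0%. The trend on both together was at 0.24 for SIRT1 and -0.14 for SIRT6 in BT-20, its ends over the 10 genes. In MDA-MB-468 it was at -0.12 for SIRT1 and 0.18 for SIRT6, on the log2(FPKM + 1) scale. The direction of the trend at these genes was thus opposite in the 2 lines. The parts of GC content and length in it were not told apart. In BT-20 it was 0.035 for PARP2 and 0.19 for PARP4, of similar GC content but mean transcript lengths of 990 and 2221 bases.

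With the trend removed, PARP4 had 0.35 in BT-20, -0.25 in MDA-MB-468, and PARP1 had 0.28 and -0.19. SIRT3 had -0.31 and 0.19, and SIRT6 had -0.22 and 0.07. The signs of these 4 genes were kept, and that of SIRT7 in MDA-MB-468 went from 0.16 to -0.0041. No counting interval was computed with the trend removed. In MDA-MB-468 the trend was 0.11 for SIRT3 and 0.18 for SIRT6, above the lower ends of their intervals, 0.06 and 0.02. For PARP4 and PARP1 the trend did not reach the near end of the interval in either line. In BT-20, SIRT1 went from 0.27 to 0.03, SIRT5 from -0.05 to -0.24 and TNKS from -0.04 to -0.20. The summed gut, gastric and plasma cell genes given above also differed between the hairpins, and their part in the values of the 10 genes was not tested.

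**Figure D4:**
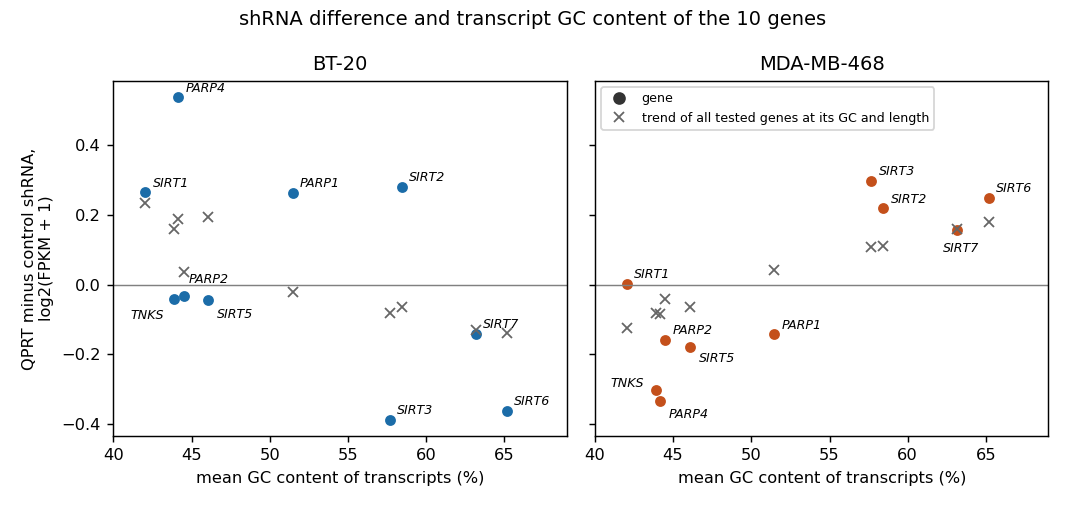
QPRT minus control shRNA on the log2(FPKM + 1) scale (vertical) against the mean GC content of a gene's transcripts in percent (horizontal), with BT-20 on the left and MDA-MB-468 on the right. Dots are the 10 genes and crosses the trend of all tested genes at the GC content and length of each gene, which runs from 0.24 at SIRT1 to -0.14 at SIRT6 in BT-20, the reverse of MDA-MB-468 (-0.12 to 0.18).

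The count of genes that passed between the lines was 8 also with the GC and length trend removed, but single differences moved. PARP2 then had 1.43 with control shRNA and 1.39 with QPRT shRNA, and PARP4 had -1.59 and -2.18. With control shRNA, SIRT1 went from 1.04 to 0.67, SIRT5 from 0.81 to 0.54, TNKS from 0.94 to 0.66, SIRT7 from 0.40 to 0.70 and SIRT6 from -0.50 to -0.13. With QPRT shRNA, PARP1 went from 0.02 to -0.14.

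A wider list of 28 genes held 16 other NAD users and 12 genes linked to ADP-ribose or to PARPs. The 12 include ZC3HAV1, a family member without known catalytic activity. Of the 28 genes, 24 reached a mean of 1 FPKM. PARP8 (at most 0.167 FPKM), PARP15 (0.276), BST1 (0.401) and CD38 (0.551), the latter pair being NAD-cleaving ectoenzymes, did not. Between the lines 15 of 24 passed the limma test, 8 higher and 7 lower in MDA-MB-468, beside the 55.1% of all genes. Of the 12 tested genes linked to ADP-ribose or to PARPs, 6 were called higher and 0 lower in MDA-MB-468. Of the 12 tested NAD users 2 were called higher and 7 lower, where 30.7% of all genes were called higher and 24.4% lower. The median line difference was 0.59 for the former, -0.67 for the latter and 0.10 for all tested genes. PARP11 was at 0 in MDA-MB-468, and SARM1 and MACROD2 had means of 0.827 and 0.831 FPKM in BT-20. Each reached a mean of 1 FPKM over the libraries only through the line where it was higher. Their calls are included in these counts, and the filter itself favoured a line difference for them.

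On the log2(FPKM + 1) scale, the largest rise from BT-20 to MDA-MB-468 in the wider list was in ADPRS, the hydrolase that takes ADP-ribose off serines, with 19.4 and 17.5 FPKM in BT-20 against 54.2 and 79.9 in MDA-MB-468. ADPRS rose by 1.78 (SE 0.22, limma adjusted p = 3.38e-15). SARM1, an NAD hydrolase of axon degeneration, rose by 1.38 from a low level (0.680 and 0.974 FPKM against 3.88 and 3.58), and 45.6% of its exonic bases are shared with other genes. MACROD2, which removes the last ADP-ribose from proteins, rose by 1.23, from about 10 and 21 fragments to about 50 and 70. The order depends on that scale, since with a pseudocount of 0.1 SARM1 (2.06) and MACROD2 (1.91), both with few fragments, came before ADPRS (1.83).

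The largest fall on the same scale was in TIPARP, a transferase of single ADP-ribose units and a target of the aryl hydrocarbon receptor, with 27.9 and 24.7 FPKM in BT-20 against 4.71 and 4.997 in MDA-MB-468. TIPARP fell by 2.22 (SE 0.25, limma adjusted p = 6.11e-18). PARP6 had 80.5 and 90.2 FPKM against 38.9 and 45.1, and fell by 1.01 (limma adjusted p = 4.90e-06). PARP11 had 79 and 78 fragments in BT-20 and was at 0 in both MDA-MB-468 libraries, so that the exact 95% counting interval of the log2 ratio of fragment shares reached up to -4.43 with control shRNA and -4.29 with QPRT shRNA. For TIPARP that log2 ratio was -2.57 and -2.31, so that by fragments PARP11 fell further. All of these PARPs are thought to transfer single units of ADP-ribose.

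**Figure D5:**
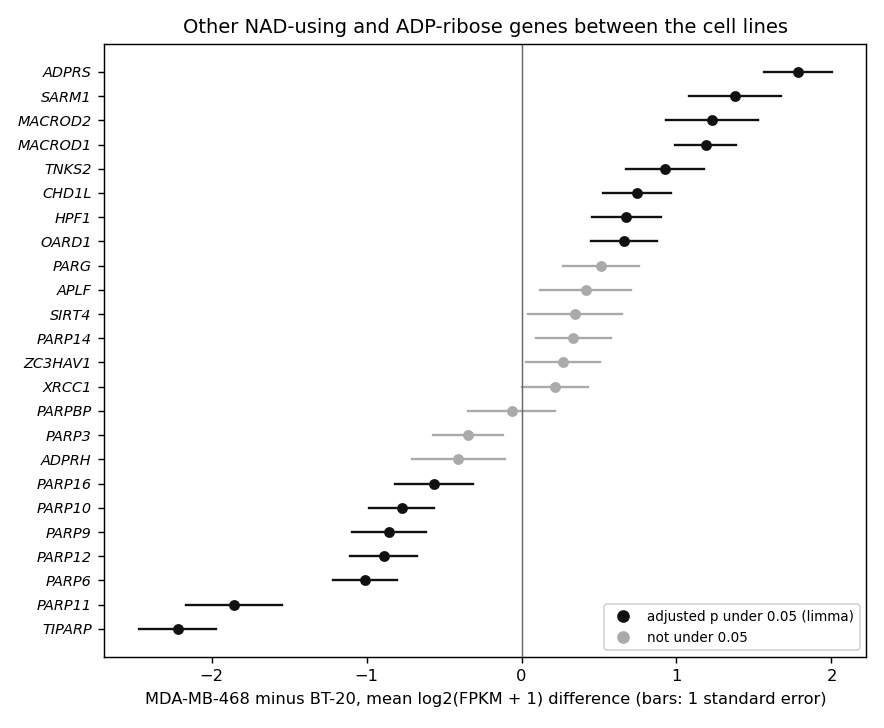
Mean MDA-MB-468 minus BT-20 difference on the log2(FPKM + 1) scale (horizontal) for the 24 tested genes of the wider list (rows), with 1 standard error of the limma fit as bars, black where the adjusted p was under 0.05 and grey where it was not. ADPRS lies highest at 1.78 and TIPARP lowest at -2.22.

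QPRT shRNA gave no call in the wider list either, with 0 of 24 at an adjusted p of 0.05 by limma and by limma-voom, and 0 at an unadjusted p of 0.05. At 1.5-fold within a line, ADPRH (higher) and SIRT4 (lower) passed in BT-20 and PARPBP (lower) in MDA-MB-468, all with under 100 fragments, that is 2 of 24 genes beside 8.98% of all genes and 1 of 24 beside 9.17%. By fragments ADPRH stood at 2.17-fold in BT-20 (log2 ratio 1.12, 0.43 to 1.85), with 26 and 58 fragments. The counting interval left out 0 for 13 of 24 genes in BT-20, beside 43.8% of all genes, against 13 of 23 in MDA-MB-468, beside 44.4%. The largest positive mean differences were 0.44 for MACROD2, 0.40 for ADPRH, which takes ADP-ribose off arginines, and 0.38 for PARP12, and the largest negative ones were those of PARPBP, XRCC1 and APLF. Of these, PARP12 was higher by its counting interval in both lines, with 45.2 and 57.4 FPKM in BT-20 against 23.3 and 31.3 in MDA-MB-468. XRCC1, the scaffold of single-strand break repair that binds ADP-ribose chains, was lower by its interval in both, with 40.6 and 33.4 FPKM in BT-20 against 46.1 and 40.1 in MDA-MB-468. Of the exonic bases of XRCC1, 24.0% are shared with other genes. With PARP6, which was higher in both lines, 3 of 23 genes had the same sign and both intervals away from 0, beside 8.41% of all genes.

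PARP4 had the widest range of the 10 genes, so the genes with the profile nearest to it were looked up among 10423 genes with a mean of at least 5 FPKM, by the Euclidean distance of log2(FPKM + 1) values centred on their mean over the 4 libraries. STRIP2 was nearest, at a distance of 0.0345, with 11.2 and 16.4 FPKM in BT-20 against 3.87 and 2.95 in MDA-MB-468. ADAM9, a membrane metalloprotease, followed at 0.0972 with 141 and 197 FPKM in BT-20 against 52.9 and 41.3 in MDA-MB-468. PRKCA, protein kinase C alpha, came next at 0.117. With 4 libraries many genes share such a profile, and nothing further can be read from the distance.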

How the data were processed

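RNA of 4 libraries was sequenced by the authors (Illumina TruSeq kit). They deposited 1 FPKM value per gene and library. TopHat2 2.0.12 and HTSeq 0.6.1 are named in the submitters' processing notes. The genome build and annotation are not given in the sources used here. The values fitted the mean transcript length of GENCODE 29 (GRCh38), from which fragments were recovered, whole within 0.02 for 87.3% to 87.6% of values above 0 (97.6% to 97.8% for genes with a single transcript). Those of SIRT5 were up to 0.389 from whole, so its fragment numbers are approximate.

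Groups followed the sample titles. Differences are of log2(FPKM + 1), which understates the change of low genes. The 14321 genes with a mean of at least 1 FPKM were fitted with limma 3.58.1 (R 4.3.3), with cell line and shRNA as terms, eBayes with a trend and Benjamini-Hochberg adjustment over all of them. Since FPKM is not a count, the DESeq2 test of the authors was not run. Exact Clopper-Pearson 95% intervals of ratios of fragment shares cover counting error only. P-values rest on the spread between these libraries as eBayes drew it from all tested genes at a similar level. They do not reflect the spread of the single gene, and the spread may be technical. In a trial of the fit on simulated data, false calls exceeded the nominal share, most of them among genes with few fragments, so that adjusted p-values of such genes may be too small. Motifs were searched in RefSeq promoters. Scripts ran in Python 3.11.15 with scipy 1.17.1, pandas 2.3.3, numpy 2.4.6, matplotlib 3.10.9 and statsmodels 0.14.6.

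The rule that chose the 10 genes used names and no measured value, but these genes, the wider list and the marker lists were chosen with earlier results of these data known. Named from the wider list are up to 3 genes with the largest mean rise and 3 with the largest mean fall in each comparison, and those under 1 FPKM. Named by the profile rule are the 3 genes nearest to the member with the widest range. The alternatives were a pseudocount of 0.1, upper quartile and TPM scaling, no filter on low values, removal of a lowess trend (fraction 0.3) on GC content and length, a threshold of 1.5-fold, eBayes without trend, no block, and limma-voom on fragments. Levels by principal transcript length were added after seeing the data.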

Additional observations from a re-analysis of the deposited data

Results flagged for a closer look

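For 4 genes the QPRT shRNA difference had opposite signs in the 2 cell lines, with both counting intervals away from 0. The difference between the lines was not tested, since each combination of line and hairpin has 1 library. On the log2(FPKM + 1) scale, the MDA-MB-468 value minus the BT-20 value was -0.87 for PARP4 (0.54 in BT-20, -0.34 in MDA-MB-468). It was 0.69 for SIRT3 (-0.39 and 0.30), 0.61 for SIRT6 (-0.36 and 0.25) and -0.41 for PARP1 (0.26 and -0.14). The intervals do not allow for the GC and length trend, which had opposite signs in the 2 lines at SIRT3 and SIRT6. In MDA-MB-468 it was larger than the lower end of the interval for both. Opposite signs with both intervals away from 0 were found for 14.7% of the 14015 tested genes with recovered fragments in both lines. That share was not matched for fragment number.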

How the results depend on the processing

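Most of the 44 values that alternatives gave for the main counts were counts of 0 that stayed 0. Of the 44, 43 stayed within 1.5 times the reported count. The exception was the number of the 10 genes that passed between the cell lines, which was 4 in place of 8 without the filter on low values (SIRT3, SIRT5, SIRT7 and TNKS were lost). Over all settings their adjusted p ranged from 0.0143 to 0.141 for SIRT3, from 0.00277 to 0.0549 for SIRT5, from 0.00225 to 0.0847 for SIRT7 and from 0.00212 to 0.0504 for TNKS. The cause was not tested. The count of the wider list between the lines ran from 11 to 15, and no setting called any of these genes for QPRT shRNA. Without the filter or without the block that held for every tested gene, so those counts could not have differed from 0. Over all tested genes the shRNA gave 90 calls, 64 by limma-voom, 1 with the GC and length trend removed and 0 without the filter or without the block. QPRT itself then had an adjusted p of 0.650 without the filter and 1.00 without the block. No difference that passed the limma test changed sign. Some differences between single libraries did, SIRT1 in MDA-MB-468 under both other scalings, PARP2 and TNKS in BT-20 under TPM scaling, PARP1 between the lines with QPRT shRNA under TPM scaling and trend removal, and SIRT7 in MDA-MB-468, whose counting interval had left out 0, under trend removal. No paired analysis was possible by replicate number because each combination of line and hairpin has 1 library. The shRNA test pairs the libraries by cell line through its block. A fit of 3 libraries leaves no residual degree of freedom, so that leaving out a library gives no test. Genes with few fragments, such as TNKS with 192 in a library, have wide counting intervals (-0.34 to 0.25 for its shRNA log2 ratio in BT-20), so that a difference within them was not detectable at this depth.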
